A study of Rattus norvegicus with 12 samples.

Results

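The genes described here are Id1, Id2, Id3 and Id4, which encode the Id proteins, and Hes1, Hes6, Hey1 and Hey2, which encode repressors of the Hes and Hey families. They were taken by gene name: every non-control probe annotated with one of these symbols is included, which gives 15 probes, 1 spot each, for 8 of the 33212 gene names among 41012 probes. The arrays compared PC12 cells, a line grown from a rat adrenal pheochromocytoma, after 5, 10, 15, 30, 60 or 120 min with the neuropeptide PACAP38, with control cells of the same time point. All cells were kept in RPMI medium with fetal bovine and horse serum on collagen-coated dishes. For each group RNA of PC12 cells (n = 6) was pooled, and the PACAP38 pool and the control pool of a time point were hybridised together on 2 arrays with the dyes Cy3 and Cy5 exchanged. Both arrays of a time point therefore hold the same RNA and count as 1 replicate: their folds are given side by side in place of an error, no test was possible between PACAP38 and control at a single time point, and what the pooled cultures varied among themselves cannot be seen.

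Id proteins have a helix-loop-helix domain but lack the basic region that touches DNA. They pair with E proteins such as Tcf3 and so keep these, and the tissue-restricted bHLH activators that need them as partners, off the E boxes of their target genes. Id genes are immediate targets of bone morphogenetic proteins (BMPs) acting through Smad proteins, and in neural precursors they hold back differentiation. Hes1, Hey1 and Hey2 do bind DNA and are activated by Notch through the DNA-binding protein Rbpj. Hes1 recruits Groucho (Tle) corepressors. Hes6 is an exception in its family: it is not switched on by Notch, opposes Hes1 and is found with differentiation into neurons. PC12 cells take up a neuron-like shape under PACAP38, which acts mainly through the receptor Adcyap1r1.

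Probe sequences are shown where probes share bases, since such probes are not separate measurements. The 2 Id3 probes that follow are 60 bases long, and the 43 bases in capitals stand in both. On the array's rn4 annotation they lie on chromosome 5, plus strand, at 154934456 to 154934630 and at 154934473 to 154934647. Each spans 175 bases of genome, 115 more than the probe holds, so both cross an exon junction.
Id3 A_44_P139744: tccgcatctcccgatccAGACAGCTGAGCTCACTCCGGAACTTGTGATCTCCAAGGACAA
Id3 A_44_P276352: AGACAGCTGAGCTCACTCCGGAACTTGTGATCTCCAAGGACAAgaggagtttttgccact
The Id2 probe A_43_P11685 likewise spans 350 bases of chromosome 6, 290 more than its length, at 42782548 to 42782897 on the minus strand. The longest run of bases that any member probe shared with a probe of another member gene was 8.

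Upstream sequences are shown for Id1 and Id3, the 2 genes with a probe counted at 2-fold, and for Hes1. They are the 250 bases before the RefSeq start in rat build GRCr8, read from a table of promoters in which 7 of the 8 genes were matched; the upstream sequence of Hey1 was not analysed here. Id1 is at chr3:161671314-161671563 and Id3 at chr5:153656041-153656290, both on the plus strand, and Hes1 is at chr11:84213046-84213295 on the minus strand. Capitals mark TATAAA in Id1 and GTGGGAA, the core that Rbpj binds, in Hes1.
Id1 upstream: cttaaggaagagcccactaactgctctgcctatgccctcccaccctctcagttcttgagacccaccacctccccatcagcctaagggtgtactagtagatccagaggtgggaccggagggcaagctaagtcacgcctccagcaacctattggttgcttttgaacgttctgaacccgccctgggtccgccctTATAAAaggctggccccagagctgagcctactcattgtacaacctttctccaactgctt
Id3 upstream: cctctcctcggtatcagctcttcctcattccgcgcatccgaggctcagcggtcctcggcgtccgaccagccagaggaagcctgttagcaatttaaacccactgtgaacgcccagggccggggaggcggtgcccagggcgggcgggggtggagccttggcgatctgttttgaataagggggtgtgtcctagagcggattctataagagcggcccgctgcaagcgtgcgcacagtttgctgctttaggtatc
Hes1 upstream: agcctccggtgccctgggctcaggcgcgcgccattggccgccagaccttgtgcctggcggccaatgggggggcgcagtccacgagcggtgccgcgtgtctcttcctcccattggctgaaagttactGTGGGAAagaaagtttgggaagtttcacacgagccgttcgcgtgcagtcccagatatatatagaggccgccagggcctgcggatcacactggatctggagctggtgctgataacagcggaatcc
Letters were matched on both strands. GTGGGAA began 124 bases before the start of Hes1 and 61 before that of Hey2, and 5.27% of 33469 rat promoter windows hold it. TATAAA began 59 bases before the start of Id1 and 30 before that of Hes6, against 12.9% of all windows. CCAAT had 3 matches each in Id2 and Hes1, 2 each in Hes6 and Hey2 and 1 in Id1, and it was present in 34.0% of windows. The cAMP response element TGACGTCA (1.59% of windows) and its shorter form TGACG (18.2%) had no match among the 7 genes. GGCGCC, a letter run of BMP-responsive Id enhancers, matched Hey2 alone (8.69% of windows). The N box CACNAG, which Hes proteins bind, had 4 matches in Hes1 and 1 in Hes6, and it is present in 37.2% of windows. The E box CANNTG had 1 match each in Id1, Id2 and Hes6, against 65.5% of windows. These are matches of letters in 1 window and not measured binding.

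Of the 8 genes, Id1 was lower after PACAP38 after 60 min and Id3 was higher after 30 min by the 2-fold rule. The brightest Id2 probe lay between 1.5-fold and 2-fold above control on both arrays from 60 min. Hes6 was lower after 120 min by less than 2-fold, Hes1 was dim with PACAP38 above control at 60 and 120 min, Hey1 did not exceed a mean fold of 1.36, and Id4 and Hey2 were too dim for any fold. To be counted, a probe needed a spot p-value below 0.01 and a fold of 2 or more, or of 0.5 or less, on each of the 2 arrays; this p-value models the error of a spot and not that between cultures. After 30 min 1 of 15 member probes was counted as higher, where 0.249% of all probes were. After 60 min 1 was counted as lower, against 0.375% of all probes. After 120 min no member probe was counted, while 1.95% of all probes were higher and 1.53% lower. The response to the peptide itself was seen in the immediate early genes: on the Cy5 and Cy3 arrays after 30 min Egr1 was at 85.7-fold and 42.9-fold over control, Fos at 25.6-fold and 17.7-fold and Nr4a1 at 15.7-fold and 8.29-fold.

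**Figure D1:**
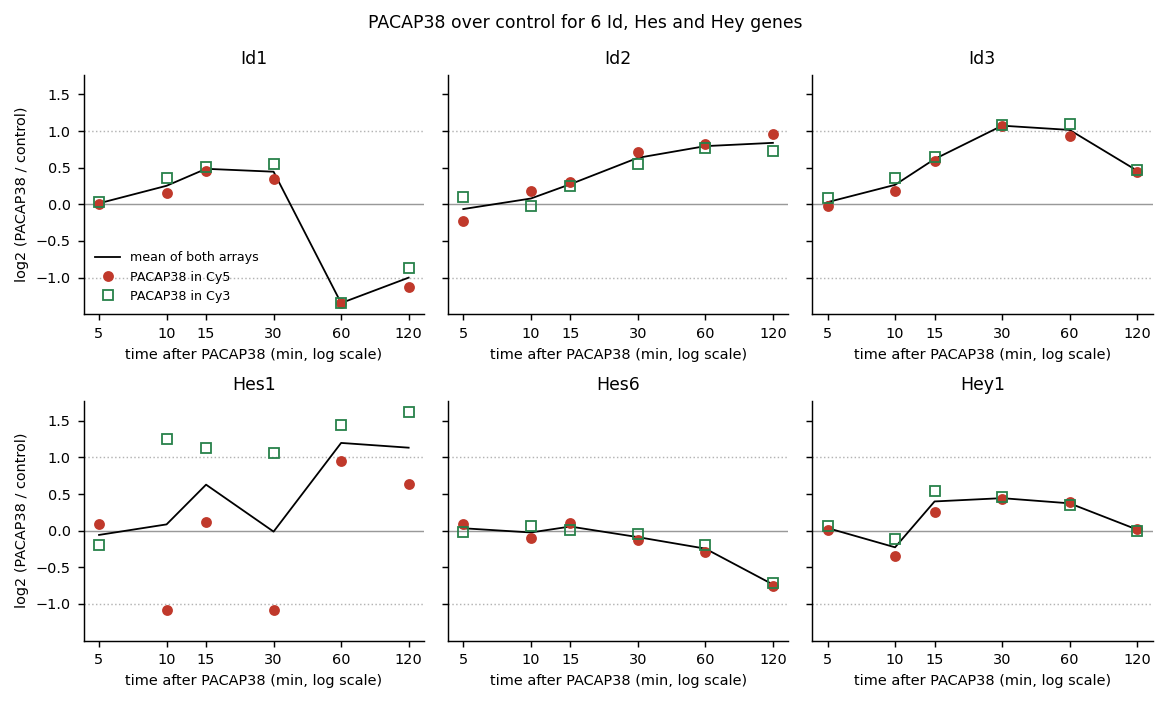
Log2 ratio of PACAP38 to control (vertical axis) against time in min on a log axis for 6 of the genes, brightest probe of each. Filled circles are the array with PACAP38 in Cy5, open squares that with PACAP38 in Cy3, the line is their mean, and dotted lines mark 2-fold and 0.5-fold. Id1 passes from above to below control between 30 and 60 min, Id3 peaks at 30 to 60 min, Id2 climbs throughout, and the 2 arrays of Hes1, a dim probe, lie far apart.

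Id1 had the lowest fold of any member with both RNAs measured, after a smaller excess at the earlier times. Its single probe, A_42_P723173 (chromosome 3, 143087157 to 143087216, plus strand, rn4), was well above background for both RNAs on all 12 arrays. The PACAP38 to control folds on the Cy5 and Cy3 arrays were 1 and 1.02 after 5 min, 1.11 and 1.28 after 10 min, 1.37 and 1.43 after 15 min, and 1.27 and 1.46 after 30 min. They were 0.392 and 0.394 after 60 min and 0.456 and 0.548 after 120 min. The processed intensities after 60 min were 2194 and 2251 for PACAP38 and 5591 and 5715 for the control. Both arrays read the same RNA pools, so this separation shows that the arrays were alike, not how cultures vary. The share of all probes separated in this way was not counted. In RNA of whole cultures a lower level per cell and fewer cells with the transcript cannot be told apart. After 120 min the intensities were 3238 and 3720 against 7105 and 6785, and the Cy3 array missed the limit of 0.5-fold, which left Id1 uncounted there.

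The direction of Id1 at 15 and 30 min was the same on both arrays, and neither time point reached 1.5-fold. Intensities put on a common scale over all 12 arrays, in log2 units, give the level of each RNA. For PACAP38 the Id1 mean was 12.74 after 15 min, 12.55 after 30 min, 10.97 after 60 min and 11.28 after 120 min. For the control it ranged from 11.78 after 10 min to 12.32 after 60 min. The 4 PACAP38 values at 60 and 120 min lay between 10.94 and 11.43, below all 8 earlier ones, which began at 11.96. The 8 PACAP38 values up to 30 min were wide, up to 13.10, and the 2 arrays after 30 min differed by more in level (11.99 and 13.10) than in ratio.

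**Figure D2:**
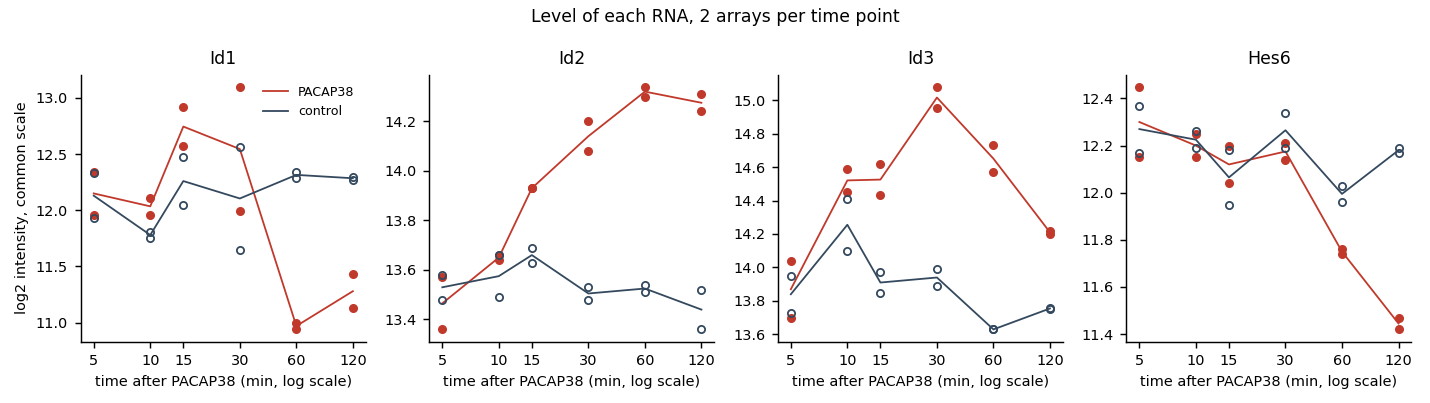
Log2 intensity of PACAP38 RNA (red, filled) and control RNA (blue-grey, open) on a scale common to all 12 arrays, against time in min on a log axis, brightest probe of each gene with its own vertical axis. Points are the 2 arrays of a time point and lines their means. The Id1 and Hes6 gaps at the last time points are made mostly on the PACAP38 side, and the Id2 control line stays between 13.44 and 13.66.

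A limma model fitted to the mean log2 ratio of each time point compared 60 and 120 min with the 4 earlier ones over 20265 probes. Id1 was 1.47 log2 units below its early level (estimate -1.47, SE 0.17), with an adjusted p of 0.0213, and was the 1 member probe of 11 fitted that passed. Over all probes 1.54% were called higher and 1.40% lower late than early. The estimate was -1.49 without the 10 min arrays (adjusted p = 0.088 by limma) and -1.41 without those after 15 min (adjusted p = 0.0833), so the call was lost each time. Both late time points lay on one slide, and late time and slide cannot be told apart. Within that slide, Id1 moved back up by 0.35 log2 units from 60 to 120 min, by 0.22 on the Cy5 array and 0.48 on the Cy3 array.

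Id3 had the largest folds over control among the Id genes, with the peak at 30 and 60 min and smaller folds after 120 min. The brightest of its 3 probes, A_44_P458074 (chromosome 5, 154935337 to 154935396), gave folds of 0.983 and 1.06 after 5 min, 1.13 and 1.28 after 10 min and 1.5 and 1.57 after 15 min. After 30 min they were 2.09 and 2.12, after 60 min 1.91 and 2.14, and after 120 min 1.36 and 1.39. The folds at 30 and 60 min overlapped, and those at 15 and 120 min were lower on both arrays. Intensities after 30 min were 26888 and 31608 for PACAP38 against 12896 and 14906 for the control. The 60 min value missed the rule on the Cy5 array.

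The overlapping pair of Id3 junction probes printed above also peaked at 30 and 60 min, with lower folds than the brightest probe at those times and higher ones after 120 min. A_44_P139744 had a mean fold of 1.9 after 30 min, 1.91 after 60 min and 1.47 after 120 min. A_44_P276352 had 1.92, 1.9 and 1.47 at those times. Neither was counted at 2-fold. From 60 to 120 min, on 1 slide, the ratios of all 3 probes were lower on both arrays, by -0.56, -0.38 and -0.36 log2 units in order of brightness. The late mean takes in both 60 and 120 min, and the late minus early estimates for Id3 were 0.24 to 0.37 log2 units, with adjusted p of 0.457 or more in limma.

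Id2 had its highest folds at the last 2 time points. For its brightest probe, A_43_P11685, the folds were 0.855 and 1.07 after 5 min, 1.13 and 0.988 after 10 min, 1.23 and 1.19 after 15 min and 1.64 and 1.47 after 30 min. They were 1.77 and 1.7 after 60 min and 1.94 and 1.65 after 120 min. The last 2 time points overlapped, while those up to 15 min lay below them on both arrays. PACAP38 intensities after 120 min were 30621 and 26526 against 15791 and 16101 in the control.

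The second Id2 probe within the same transcript, A_44_P170710 (chromosome 6, 42783112 to 42783171), followed this course, from a mean fold of 0.999 after 5 min to 1.5 after 30 min and 1.76 after 120 min. The third, A_44_P177058 (42781039 to 42781098), is annotated to another transcript record and gave 1.66 after 30 min, 1.68 after 60 min and 1.39 after 120 min. From 60 to 120 min it moved by -0.27 log2 units while the others moved by 0.05 and 0.12, so the probes of Id2 disagree on the last step. In a limma fit of the log2 ratio on log2 time, the slope was 0.22 per doubling of time (SE 0.03, adjusted p = 0.0507) for A_43_P11685 and 0.20 (SE 0.03, adjusted p = 0.0558) for A_44_P170710. These are the nearest to the threshold among the 11 member probes, of which none passed, while 8 had an unadjusted p under 0.05. Over all probes 0.523% had a slope called upwards and 0.202% downwards. With slide as a block no probe was called, member or not.

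**Figure D3:**
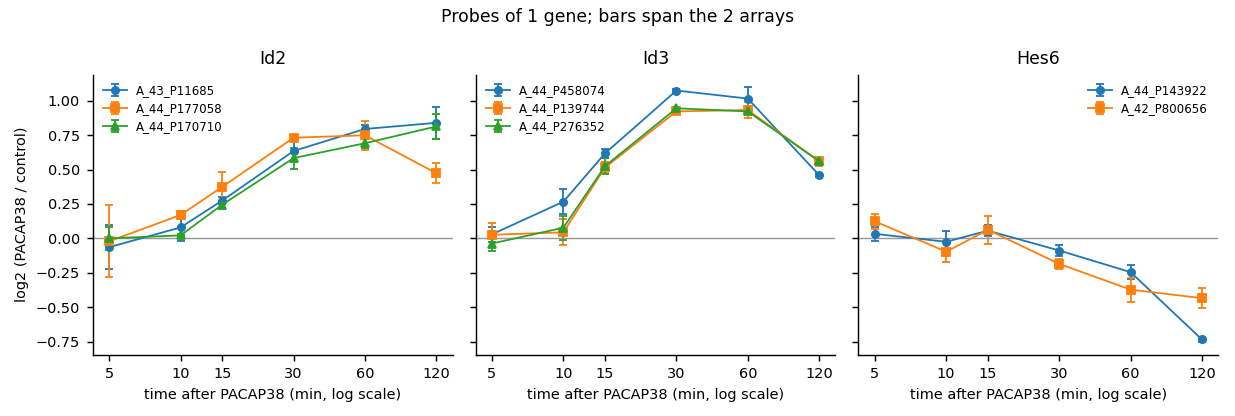
Log2 ratio of PACAP38 to control against time in min on a log axis for all probes of Id2, Id3 and Hes6. Symbols are means of the 2 arrays and bars span both arrays. The 3 Id3 probes run together, while 1 of the Id2 probes drops between 60 and 120 min.

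With the limit set to 1.5-fold, the spot p-value kept, the picture of the Id genes was wider. After 30 min 4 member probes were counted as higher, all 3 of Id3 and A_44_P177058 of Id2, where 0.407% of all probes were. After 60 min all 6 probes of Id2 and Id3 were higher, against 1.41% of probes, and Id1 was lower, against 1.11%. After 120 min 2 probes of Id2 were higher (3.03% of probes), and Id1 and the brighter Hes6 probe were lower (3.85%). No member probe was counted at 5, 10 or 15 min at either limit, when at most 0.134% of all probes were counted in either direction. Since 6 of these probes belong to 2 genes, the counts are not counts of genes.

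Id4 could not be read. Its 2 probes were well above background in neither RNA on any of the 12 arrays, with processed intensities between 4.19 and 14.2, so no fold is given and a level below the reach of the array cannot be told from none.

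Hes1 is the main Notch target of the group and the one whose product cycles by repressing its own gene. Its single probe, A_44_P435739 (chromosome 11, 72605138 to 72605197, minus strand), was well above background for PACAP38 on 7 arrays and for control on 2. After 60 min PACAP38 gave 56.9 and 65.9 and control 29.4 and 24.3. After 120 min PACAP38 gave 64.8 and 72.3 and control 41.6 and 23.5. PACAP38 was above control on both arrays at these times.

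The control was not well above background on either array at 15, 60 and 120 min, so the Hes1 folds there are uncertain. For these times the control was set to the lowest signal well above background or its own, whichever was higher. Averaged over both arrays, Hes1 was then 1.42-fold higher after 15 min, 2.29-fold after 60 min and 2.18-fold after 120 min. These are not lower limits for a single array. Without that setting the Cy5 arrays gave 1.09, 1.94 and 1.56 and the Cy3 arrays 2.19, 2.71 and 3.08. At 10 and 30 min the arrays pointed opposite ways, with folds of 0.471 and 2.39 and of 0.472 and 2.08, and PACAP38 read higher where it was in Cy3. At 15, 60 and 120 min too the fold was the larger on the Cy3 array. With normexp background correction, whose offset pulls dim ratios towards 1, the fold after 60 min was 1.1.

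Hes6 was below control at the last time points. Its brighter probe, A_44_P143922 (chromosome 9, 90640120 to 90640179), had folds between 0.915 and 1.07 on the 8 arrays up to 30 min. They were 0.814 and 0.874 after 60 min and 0.594 and 0.608 after 120 min, which lies below every other time point. Intensities after 120 min were 3932 and 3801 for PACAP38 against 6618 and 6256 for the control. On the common scale its PACAP38 mean went from 12.18 after 30 min to 11.44 after 120 min, while the control means of all time points lay between 11.99 and 12.27.

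The dimmer Hes6 probe, A_42_P800656, gave 0.727 and 0.821 after 60 min and 0.779 and 0.703 after 120 min, lower on all 4 arrays but without the further step. From 60 to 120 min the brighter probe moved by -0.49 log2 units and the dimmer one by -0.06, and both were read on 1 slide. The late minus early estimates were -0.48 (SE 0.15, adjusted p = 0.133) and -0.38 (SE 0.12, adjusted p = 0.135) in limma.

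Hey1, read by A_44_P527075 (chromosome 2, 95175952 to 95176011), was dim but well above background in both RNAs on all 12 arrays, at 73.4 to 131. Its folds were 1.19 and 1.46 after 15 min, 1.35 and 1.37 after 30 min and 1.31 and 1.28 after 60 min. They were 1.02 and 1 after 120 min, and 0.787 and 0.927 after 10 min. PACAP38 was above control on all 6 arrays from 15 to 60 min, and none of these reached 1.5-fold. With normexp correction the fold after 30 min was 1.09 in place of 1.36. Hey2, with 2 probes between 4.41 and 40.6, was well above background once, for control RNA on 1 array, and no fold is given.

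**Figure D4:**
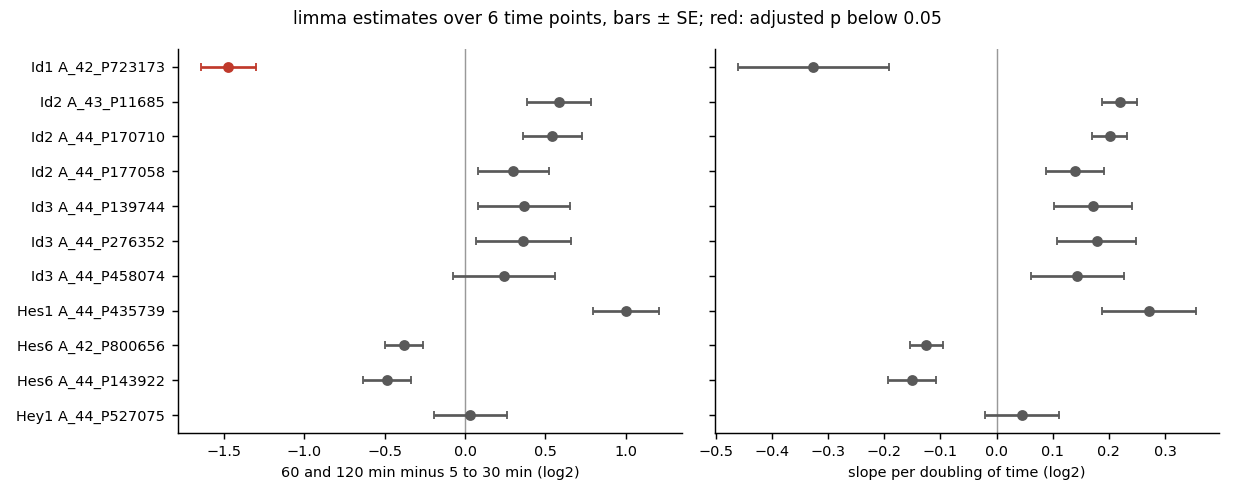
limma estimates for the 11 member probes fitted: on the left the mean log2 ratio at 60 and 120 min minus that at 5 to 30 min, on the right the slope per doubling of time, with bars of ± SE over 6 time points. Id1 (red, -1.47) is the 1 estimate with an adjusted p below 0.05. The Hes1 estimates rest on signals that were mostly not well above background.

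The courses of other genes were compared with these over the 6 time points, by the distance between log2 ratios among 10559 probes with a gene name and both RNAs well above background on all arrays. Nearest to Id1 were the zinc finger genes Zfp27 (distance 0.70), Zscan12 (0.75) and Zfp267 (0.75). Zfp27 had folds of 0.969 after 30 min and 0.318 after 60 min. Nearest to Hes1 were Rmdn3 (0.48), Impact (0.59) and Arf4 (0.59), which is limited by the dim Hes1 values. Id3, Id2 and Hes6 were looked up in the same way after their values were seen. Among the courses nearest to Id3 was that of Zfp36l2 (0.63). Id2 was nearest to Fam220a (0.17), Insig1 (0.20) and Jund (0.22), and Hes6 to Eya3 (0.06), Coq8a (0.07) and Psmg3 (0.08).

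Partners of the Id proteins showed small differences. All 3 E proteins, Tcf3, Tcf4 and Tcf12, were measured and none was counted at 2-fold at any time. After 120 min Tcf3 had folds of 0.747 and 0.604 and Tcf12 0.705 and 0.783, while Tcf4 had 1.2 and 1.03. The median log2 ratio of the 3 was -0.43 after 120 min, where that of all measured probes was -0.02. Of 13 tissue-restricted bHLH activators 12 were on the array and 3 were measured in both RNAs at 60 and 120 min, with none counted and a median log2 ratio of 0.17 after 120 min.

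Corepressors and relatives of the Hes proteins were more divided. Of 6 Groucho family genes, all measured at 60 and 120 min, Tle3 was counted as higher after 60 min (2.01 and 2.35), where 0.870% of all probes were, and after 120 min (3.8 and 4), where 1.95% were. Tle1 had folds of 0.539 and 0.508 and Tle4 0.511 and 0.653 after 120 min. Both were past 1.5-fold downwards, where 3.85% of all probes were counted as lower by that limit. The median log2 ratio of the 6 was 0.10 after 120 min. Of 8 other Hes and Hey relatives 7 were on the array and 3 were measured, Hes7, Bhlhe40 and Bhlhe41. Bhlhe41, a repressor tied to the circadian clock, was counted as higher after 120 min, at 2.29 and 2.51. Hes2, Hes3 and Heyl were well above background on no array.

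Upstream of the Id genes, 21 BMP pathway genes were on the array and 12 were measured after 120 min, with a median log2 ratio of -0.08. Smad1, which carries the BMP signal, was counted as higher after 120 min (3.33 and 2.64) by 1 of its 2 probes. Bambi, a decoy receptor, was counted too (2.73 and 2.62), where 1.95% of all probes were higher. The inhibitory Smad7 had folds of 0.472 and 0.615 after 60 min and 0.447 and 0.555 after 120 min, and Smad6 had 0.609 and 0.627 after 120 min. The BMP-responsive Smad5 had 0.628 and 0.659. None was counted as lower at 2-fold.

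Upstream of Hes1, 27 of 29 Notch pathway genes were on the array, 15 were measured after 120 min, and none was counted at any time point at 2-fold. Their median log2 ratio was 0.01 after 120 min. Notch4 had 1.66 and 1.54 and the coactivator Maml1 1.77 and 1.73, the 2 genes of the list counted at the 1.5-fold limit on both arrays after 120 min, where 3.03% of all probes were higher by that rule. Of 6 cyclin-dependent kinase inhibitors, listed as targets of bHLH factors, 4 were measured. A link between their values and those of the Id genes was not tested. Cdkn1a was counted as higher at 2-fold after 120 min (3.22 and 2.62), where 1.95% of all probes were. Cdkn1b had 1.58 and 1.67.

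The cells carried the markers of the line: 9 of 10 chromaffin markers were on the array, and all 9, including Th, Dbh and Adcyap1r1, were well above background in both RNAs on all 12 arrays. Some of these were themselves higher late. After 120 min Scg2, which encodes a secretory granule protein, was counted at 2.05-fold and 2.03-fold, where 1.95% of all probes were higher. Dbh had 3.03 and 1.83 and Th 2.15 and 1.52. The median log2 ratio of the 9 markers was 0.32 against -0.02 for all measured probes. Their part in the late values of the Id and Hes genes was not tested. Of 5 fibroblast markers Col1a1 was so on all arrays and 2 were so on none. Of 5 glial markers 4 were well above background on no array, and of 3 immune markers Ptprc and Cd3e were so on none. Summed fibroblast signal was 126 to 227 in PACAP38 pools and 118 to 250 in controls, and summed glial signal 90.4 to 138 and 101 to 202. Summed immune signal reached 436 in PACAP38 pools and 224 in controls, with Cd68 at 1.97 and 1.91-fold after 120 min; its part in the values of the Id and Hes genes was not tested. In the control channel 38.4 to 49.6% of an array's spots passed the background limit, none was saturated, and no member spot had an outlier flag.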

How the data were processed

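The authors extracted 12 Agilent 4x44K two-colour arrays with Feature Extraction, for which the file headers give version 12.0.3.1 and the submitters' notes 11.0.1.1. Deposited per spot are processed Cy3 and Cy5 intensities, background-subtracted and LOWESS dye-normalised by the authors' software, with a p-value for the spot's log ratio and flags. A deposited table holds the log10 ratio of Cy5 to Cy3, not turned for the dye exchange. Probe positions are those of the files on rn4.

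Ratios of PACAP38 to control were taken from the processed intensities as log2, turned by dye, without control or outlier spots. A fold is the geometric mean of 2 arrays, and the brightest probe stands for a gene. Levels on a common scale were quantile-normalised on average intensity. limma 3.58.1 (R 4.3.3) fitted slope and late against early on probes with at least 1 channel well above background on both arrays of a time point, with Benjamini-Hochberg adjustment, and was tested on simulated data. Python 3.11.15 and pandas 2.3.3 served for all else. List genes were named by file symbol or RefSeq accession. The rule named all members, list genes counted at 2-fold, the 3 nearest courses of the 2 members with the largest ratio, and Fos, Egr1 and Nr4a1; other list genes and the nearest courses of Id2, Id3 and Hes6 were named after their values were seen. The members and lists were chosen with earlier results of these data known. Alternatives were other fold and p-value rules, single arrays, normexp (offset 50) with loess or median centring, the deposited table, other filters, slide as a block, time in minutes and the omission of 1 time point at a time. Proteome data were not used here. Results for some genes are not reported here.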

Additional observations from a re-analysis of the deposited data

Results flagged for a closer look

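The Id1 ratio differed between time points by a test of the difference itself: the limma estimate for 60 and 120 min minus 5 to 30 min was -1.47 (SE 0.17, adjusted p = 0.0213). The call was lost without the 10 min arrays (limma adjusted p = 0.088) and without the 15 min arrays (0.0833). All 6 arrays at 10, 15 and 30 min had PACAP38 above control, and all 4 arrays at 60 and 120 min had it below. The late arrays all lay on 1 slide, with which the difference cannot be told apart. The other 10 member probes fitted gave no such difference at this threshold.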

How the results depend on the processing

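Id1 at 60 min and Id3 at 30 min were the probes counted, 2 in all, and these 2 were counted in 8 of the 9 other settings, among them the fold limit alone, each dye orientation alone, normexp with loess and the deposited ratios. The 1.5-fold limit counted 8 member probes. Normexp with median centring counted 0, as 1 array of each missed the limit: the mean folds were 0.421 for Id1 at 60 min (0.602 and 0.295 on the Cy5 and Cy3 arrays) and 2.13 for Id3 at 30 min (1.94 and 2.34). Under that scaling the median log2 ratio of all measured probes was 0.007 at 60 min and -0.029 at 30 min, with the largest shifts at 15 min (0.133) and 120 min (-0.140). The geometric mean alone and the Cy3 arrays alone each counted 3, adding Hes1.

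The slope on log2 time called 0 member probes, and 147 of all probes. It called 3 member probes with both RNAs well above background on all 12 arrays (976 of all) and 3 with time in minutes (5337 of all); leaving out each time point gave 0 to 0 among members and 0 to 153 of all. Over all probes it called 27 with normexp and loess, 1 with median centring, 0 with slide as a block or with no filter, 3 on the Cy5 arrays and 29 on the Cy3 arrays. Late against early called 1 member probe and 595 of all. Normexp with loess called 2 (1137 of all), and leaving out each time point 0 to 2 (38 to 5031 of all), with 0 members without 10 min, the dim Hes1 in place of Id1 without 15 min, and Hes6 (-0.729) beside Id1 without 60 min. Over all probes it called 181 with no filter, 88 on the Cy5 arrays and 285 on the Cy3 arrays. Slide as a block could not be fitted for it. No member estimate or counted fold that passed a threshold changed direction, and of the log2 folds of single genes 132 stayed within the spread of the 2 arrays and 36 moved beyond it. Signal over background limits Id4, Hey2 and Hes1. PACAP38 and control are paired on each array by the design, so every ratio is a paired value.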
